A study of Mus musculus with 26 samples.

Results

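The potassium channel genes described here are the 94 protein-coding genes of the deposited count table whose symbols start with Kcn, out of 56941 genes in all. Kcn is the prefix given to the subunits of potassium channels and to several proteins that bind them. RNA sequencing measured them in neuronal spheroids differentiated from one mouse embryonic stem cell line, HBG3, which carries the motor neuron reporter HB9::GFP (GFP under the promoter of Mnx1) and is expanded on feeder cells. The study asks which effects of exercising muscle on motor neurons are mechanical and which are carried by the medium. Of the 94 genes, 60 passed the filter on low counts and entered the tests. The other 34 are described by level only.

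All 5 groups shared the cell line, whose genotype label reads "heterozygous blastocysts", and a differentiation with retinoic acid and purmorphamine, with CNTF and GDNF added after 5 days. Spheroids of about day 8 were seeded on fibrin. In the actuated group (n = 4) a magnetic silicone array in the matrix was driven daily for 30 min at 4 Hz, and in the static group (n = 4) the array was present but stayed at rest. The remaining libraries were labelled low intensity (n = 6), high intensity (n = 6) and biochemical control (n = 6). Per the study's text, medium came from optogenetic muscle with or without light stimulation, but nothing ties either medium to an intensity label, so the groups keep their intensity names. Nothing in the labels says that replicates came from separate cultures, so p-values measure the spread between these samples, which may be technical.

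In 5 of the 26 libraries at most 457670 counts fell on protein-coding genes, and in low-intensity replicate 6 only 1151 did. The other 4 shallow libraries were static-array replicate 3, biochemical-control replicate 4 and high-intensity replicates 4 and 5. Values below come from the remaining 21 deeper libraries unless stated, with 4 actuated, 3 static, 5 low-intensity, 4 high-intensity and 5 control libraries. Their total counts ranged from 7269276 to 13162635 on the arrays and from 1551334 to 3971348 in the biochemical groups. Between 56 and 86 of the 94 Kcn genes had a count in a deeper library, and the Kcn counts of a library summed to 2527 at the lowest and 22246 at the highest. A count of 0 allowed a level of up to 0.228 CPM (counts per 1000000) in the deepest and 1.93 CPM in the shallowest of the 21, as 3 counts of the total, for counting error only. The labels call the cells nerve cells: all 8 neuronal markers had counts in every group, and their summed level was between 5085 and 10104 CPM per library. The 7 motor neuron markers also had counts in every group, but summed to only 70.5 to 162 CPM, while the 6 markers of astrocytes and radial glia summed to 2291 to 4620 CPM. In such bulk samples, fewer cells of a type and less RNA per cell cannot be told apart.

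Potassium channels let potassium ions leave the cell, which holds the resting potential, repolarizes the membrane after an action potential and limits repetitive firing. Voltage-gated channels (subfamilies Kcna to Kcnd, Kcnh and Kcnq) open on depolarization. Inward rectifiers (Kcnj) and tandem-pore channels (Kcnk) set the resting potential, calcium- and sodium-activated channels (Kcnma1, Kcnn, Kcnt) follow ion entry, and auxiliary proteins (Kcnab, Kcnip, Kcnmb, Kcne) change gating and transport of the pore subunits. In motor neurons these currents shape the afterhyperpolarization and the firing rate.

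The part of the protein that all pore subunits share is the selectivity filter, a short loop that strips water from potassium ions. The coding sequence of the filter is shown here for a few abundant pore genes, because it separates pore subunits from auxiliary ones. Tandem-pore genes match the signature given below at least 2 times, but so do 2 of the 63 other pore-forming and modifier genes. The sequences are coding-strand bases of the longest coding sequence of each gene in GENCODE M21 (GRCm38), read in frame, with the 5 codons of the signature in capitals (threonine or serine, any residue, glycine, tyrosine or phenylalanine or leucine, glycine).
Kcnma1: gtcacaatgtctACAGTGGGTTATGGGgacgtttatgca
Kcnd2: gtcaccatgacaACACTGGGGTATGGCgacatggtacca
Kcna2: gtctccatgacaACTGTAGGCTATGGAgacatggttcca
Kcnc1: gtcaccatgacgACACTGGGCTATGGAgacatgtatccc
Kcnk1 first pore: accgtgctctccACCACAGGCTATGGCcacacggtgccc
Kcnk1 second pore: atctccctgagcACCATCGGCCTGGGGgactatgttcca
Kcnk9 first pore: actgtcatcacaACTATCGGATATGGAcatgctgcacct
Kcnk9 second pore: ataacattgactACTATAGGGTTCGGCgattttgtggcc

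These stretches lie within coding exons: exon 8 of 31 in Kcnma1 (chr14:23528401-23528439, minus strand), exon 3 of 3 in Kcna2 (chr3:107105212-107105250, plus strand) and exon 2 of 4 in Kcnc1 (chr7:46427961-46427999, plus strand). In Kcnd2 the stretch joins exons 1 and 2 across an intron, so its ends are 496760 bases apart (chr6:21217394-21714153, plus strand). The first filter of Kcnk1 likewise joins exons 1 and 2 (chr8:125995796-126025031, plus strand), and the second lies in exon 2 of 3 (chr8:126025317-126025355). The first filter of Kcnk9 joins its exons 1 and 2 (chr15:72513025-72546015, minus strand), and the second lies in exon 2 (chr15:72512707-72512745). All 94 genes were found in the annotation by their identifier. The signature occurred in all 77 pore-forming and modifier genes, in all 14 tandem-pore genes at least 2 times, in 0 of the 16 auxiliary genes and not in Kcnrg, a regulator of channel assembly. It also occurred in 5.35% of 21899 protein-coding genes of the same annotation, so that a match alone is only a description. Apart from the tandem-pore genes, Kcna6 and Kcnh2 held a second match.

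Levels were compared between genes only in TPM (transcripts per 1000000), which accounts for length. The family was led by 3 auxiliary subunits: Kcnmb4, a beta subunit of the large-conductance calcium-activated channel, averaged 48.3 ± 28.3 TPM (SD, n = 21), Kcnab2, a beta subunit of Kcna channels, 31.3 ± 12.2 TPM, and Kcnip1, a calcium-binding partner of Kcnd channels, 29.9 ± 10.8 TPM. Among the most abundant pore subunits were Kcnk1 (21.9 ± 7.76 TPM) and Kcnma1 (21.1 ± 6.70 TPM). Kcnmb4 exceeded Kcnab2 in 17 of 21 libraries and Kcnip1 exceeded Kcnk1 in 18, whereas Kcnab2 exceeded Kcnip1 in only 13. The order within the latter pair is therefore not separated by the spread between libraries. The lead of Kcnmb4 did not hold in every group. In the controls it averaged 19.1 ± 18.2 TPM, beside 21.7 ± 8.04 TPM for Kcnip1 and 20.1 ± 9.94 TPM for Kcnab2. In all, 55 genes averaged at least 1 TPM and 67 at least 1 CPM, and Kcnj13 had 0 counts in all 21 libraries. The TPM values were not used to compare groups, for a reason given with the family totals below.

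**Figure D1:**
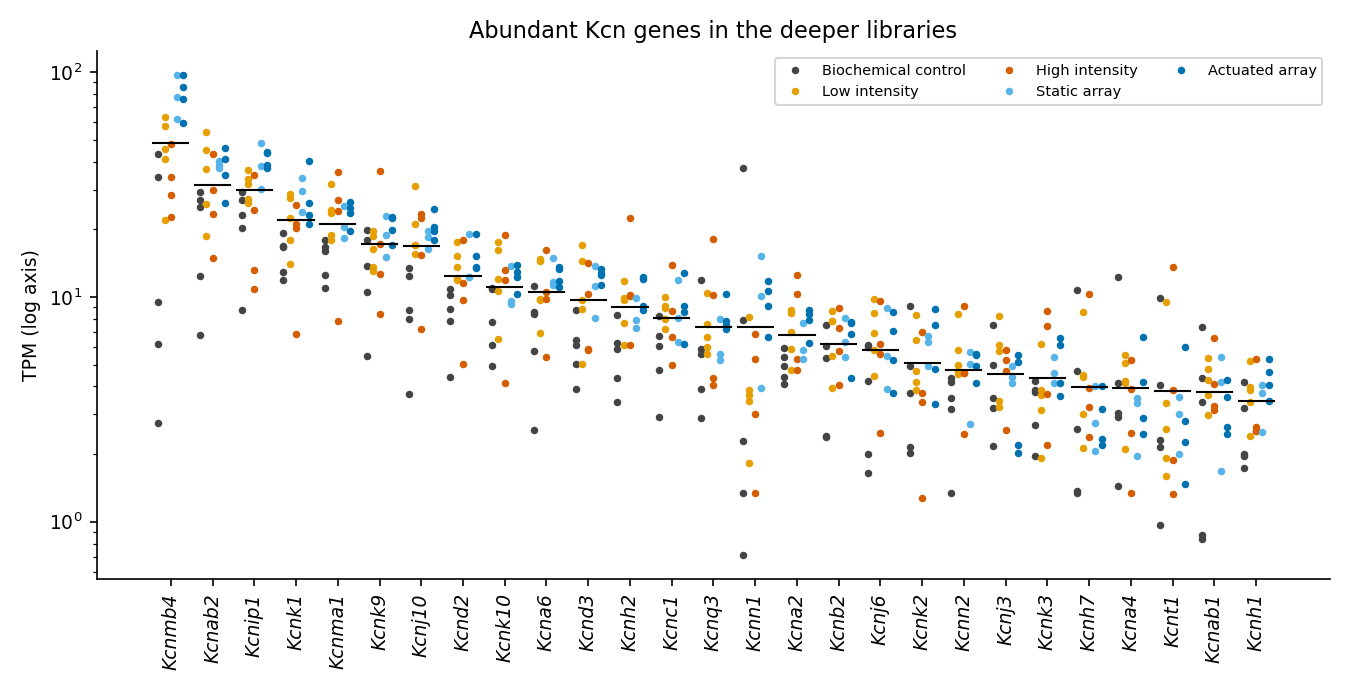
TPM of 27 of the 30 most abundant Kcn genes (log axis) in the 21 deeper libraries, coloured by group, with the mean over libraries as a bar. Kcnmb4 has the highest mean and spans 2.75 to 97.3 TPM, and neighbouring genes overlap widely.

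The 30 voltage-gated pore genes together held 33.3 ± 3.49% of the summed Kcn TPM, and 23 of them entered the tests. Kcnq3 (7.36 ± 3.41 TPM) encodes a subunit of the M current, a slow current that restrains repetitive firing. Kcnq5, also neuronal, averaged 2.61 ± 1.30 TPM, while the epithelial and cardiac Kcnq1 had 8 counts over the 21 libraries. The A-type subunits Kcnd2 and Kcnd3, which inactivate fast and delay spiking, averaged 12.5 ± 4.08 and 9.74 ± 3.76 TPM, above Kcnd1 at 1.95 ± 1.87 TPM. Kcnb2, a slow delayed rectifier, averaged 6.18 ± 1.93 TPM.

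Among the low-threshold Kcna channels of axons, Kcna6 was highest (10.6 ± 3.47 TPM), followed by Kcna2 (6.78 ± 2.17 TPM), Kcna4 (3.95 ± 2.35 TPM) and Kcna1 (2.98 ± 1.04 TPM). Kcna6 exceeded the next gene in the order of all members, Kcnd3, in 16 of 21 libraries. The Kcnc channels, which repolarize fast-spiking neurons, were led by Kcnc1 (8.04 ± 2.65 TPM). Kcnh2, the ERG channel, averaged 9.01 ± 3.90 TPM. It also varied least between libraries on the CPM scale, with a coefficient of variation of 14%. Modifier subunits, which form no channel alone and change Kcnb channels when assembled with them, were low: Kcng1 averaged 2.93 ± 1.01 TPM, Kcns1 2.05 ± 1.04 TPM, Kcnv1 1.78 ± 1.25 TPM and Kcnf1 0.739 ± 0.485 TPM.

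Tandem-pore channels carry leak currents and held 15.5 ± 2.16% of the summed Kcn TPM. Only 6 of 14 members reached 1 TPM. After Kcnk1 came the acid-sensitive Kcnk9 (17.2 ± 6.38 TPM), the stretch- and lipid-sensitive Kcnk10 (11.1 ± 3.89 TPM) and Kcnk2 (5.10 ± 2.24 TPM), the acid-sensitive Kcnk3 (4.37 ± 1.77 TPM) and the stretch-sensitive Kcnk4 (2.99 ± 2.47 TPM). Kcnk9 and Kcnk3, which can form a joint channel, thus stood at unequal levels, and Kcnk9 alone had 195 CPM on average, the highest of all Kcn genes on that scale, which does not account for length. Inward rectifiers held 8.66 ± 1.56% of the summed Kcn TPM. Kcnj10, the inward rectifier that clears potassium in glia, led them with 16.8 ± 6.45 TPM and exceeded the next gene in the order of all members, Kcnd2, in 20 of 21 libraries. The G protein-gated Kcnj6 and Kcnj3 averaged 5.82 ± 2.38 and 4.52 ± 1.69 TPM, and Kcnj2, a strong rectifier, 2.24 ± 0.902 TPM.

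Kcnma1 encodes the large-conductance calcium-activated channel and showed a coefficient of variation of only 18.0% on the CPM scale, against 44.1% for its beta subunit Kcnmb4. The small-conductance genes, whose current underlies the afterhyperpolarization of motor neurons, were lower: Kcnn1 averaged 7.36 ± 7.94 TPM, Kcnn2 4.73 ± 1.76 TPM and Kcnn3 2.68 ± 1.55 TPM. Control replicate 5 had 37.5 TPM of Kcnn1, while the next highest library, static-array replicate 1, had 15.2 TPM. On the CPM scale the same libraries lay closer together, at 14.5 CPM in control replicate 5 and 10.97 CPM in static-array replicate 1. Kcnn4, the intermediate-conductance channel of non-neuronal cells, had counts in 10 of 21 libraries, with 116 counts in all. The sodium-activated Kcnt1 averaged 3.81 ± 3.28 TPM and the testis channel Kcnu1 0.947 ± 0.957 TPM. Of the auxiliary genes beyond the leading 3, Kcnip2 averaged 2.27 ± 1.89 TPM and Kcne1l, also called Kcne5, 2.2 ± 1.37 TPM.

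Counts and TPM gave unlike pictures of the family as a whole. Kcn counts per 1000000 protein-coding counts were 1947 ± 65.6 on the actuated array (SD, n = 4), 1943 ± 152 on the static array (n = 3), 1730 ± 210 at low intensity (n = 5), 1774 ± 365 at high intensity (n = 4) and 1934 ± 199 in the controls (n = 5). All 5 groups overlapped on this scale. The summed Kcn TPM was 515 ± 77.0 and 486 ± 79.8 on the actuated and static arrays and 305 ± 78.5 in the controls, where it lay between 213 and 400.4. At low intensity it was 449 ± 63.2 and at high intensity 414 ± 147. The median of all fitted genes moved the same way on the log2(TPM + 1) scale, by 0.50 (static array), 0.53 (high intensity) and 0.64 (low intensity) above the controls, so that group differences in TPM are not specific to Kcn genes. Relative to that shift, the Kcn median was at -0.14, -0.15 and -0.23. Groups were therefore compared on counts with TMM scaling (CPM), within each gene.

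**Figure D2:**
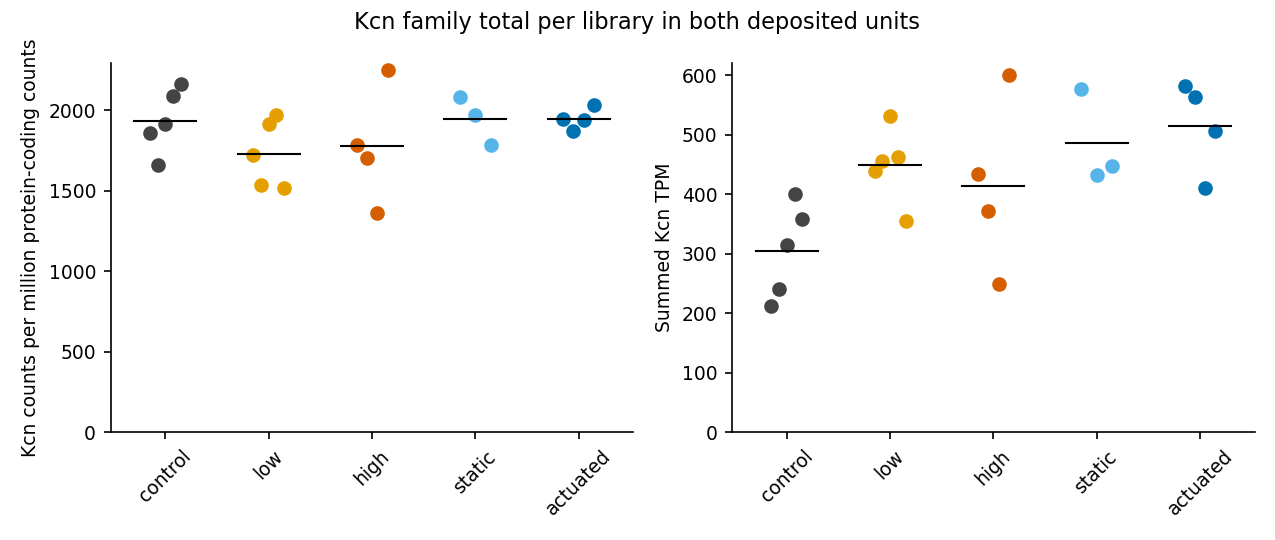
Kcn counts per 1000000 protein-coding counts (left) and summed Kcn TPM (right) in each of the 21 deeper libraries, with the group mean as a bar. The groups overlap on the left, while on the right all 7 array libraries lie above the highest control of 400.4 TPM.

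Shares within the Kcn total remove a shift that is common to all genes, but not one that differs between genes, and they are given as a description without a test. The tandem-pore share was between 14.3 ± 1.76% at low intensity and 16.5 ± 3.32% in the controls. The Kcnmb share, which is almost all Kcnmb4, was 15.7 ± 1.74% on the actuated array, 16.3 ± 1.71% on the static array, 10.5 ± 3.01% at low intensity, 8.53 ± 2.33% at high intensity and 5.77 ± 4.34% in the controls. The array libraries ranged from 13.7 to 17.7% and the controls from 1.28 to 11%, without overlap. The Kcnip share was 7.14 ± 0.133% at high intensity and between 8.36 and 9.72% on average in the other 4 groups. The controls, at 8.36 ± 2.22%, ranged from 5.06 to 10.5% and so spanned the high-intensity range of 7.01 to 7.32%. The low-intensity and array libraries lay above that range, from 8.12% upwards.

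**Figure D3:**
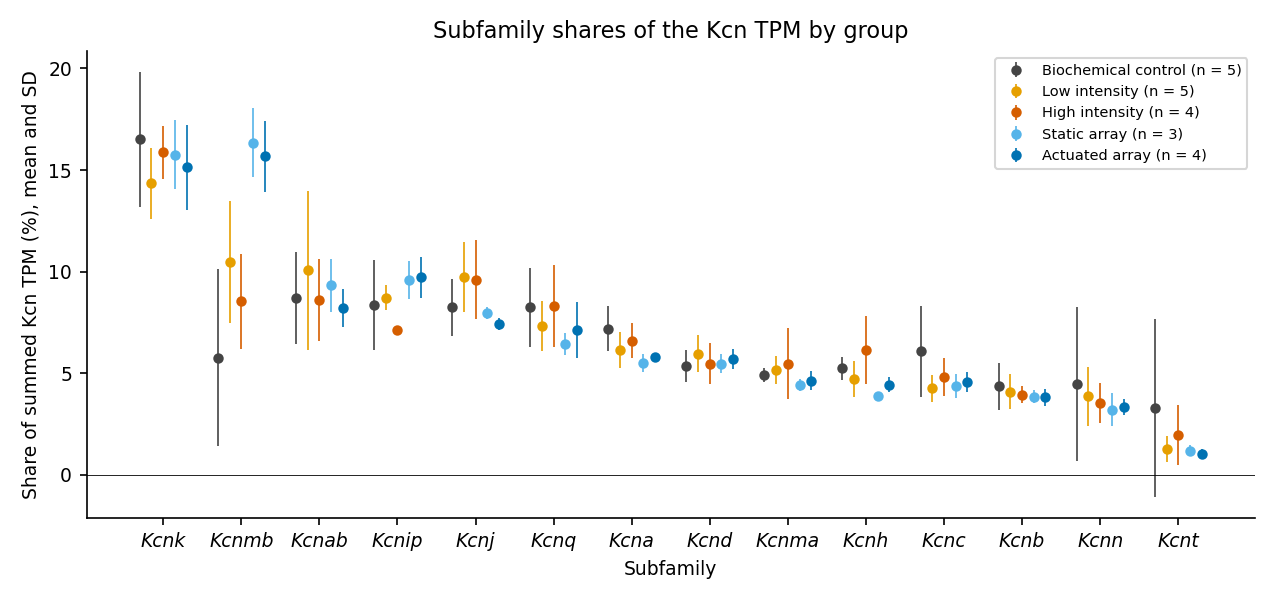
Share of each subfamily in the summed Kcn TPM (percent), as the mean and SD of each group, for the 14 most abundant subfamilies. The means of the Kcnmb share lie at 15.7 and 16.3% on the arrays and 5.77% in the controls, while the Kcnk means stay between 14.3 and 16.5%.

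Actuation of the array was compared with the static array to ask what movement does. No Kcn gene was called (edgeR quasi-likelihood test, adjusted p under 0.05, 0 of 60), and the background was the same, with 0% of 14730 genes called. The count at an unadjusted p under 0.05 was 0 of 60, against 0.38% of all genes. That share is far below the threshold of 0.05 itself, so the test was conservative in this comparison. The absence of calls therefore does not show equal levels. All 5 groups shared 1 estimate of spread. A fit of only the actuated and static groups also called 0 Kcn genes. The share of all genes at an unadjusted p under 0.05 was not computed in that fit. The part of the shared spread in the low share was therefore not tested. The median log2 fold change of the 60 genes was -0.00, with 30 higher and 30 lower, and the share lower among all genes was 50.1%. It ranged from -0.07 to 0.04 when each library was left out. For the most abundant genes the levels were near equal: Kcnma1 had 183, 184, 175 and 203 CPM in the actuated libraries and 194, 188 and 164 CPM in the static ones. Its log2 fold change was 0.04 with a 95% interval from -0.38 to 0.45. Among the 29 Kcn genes of at least 10 CPM, the interval lay within a 2-fold change in both directions for 27. All 6 fitted motor neuron markers were higher with actuation (95.7 to 131 against 73.7 to 89.1 CPM, median 0.50), without overlap of their sums, and none passed the edgeR test. The part of these markers in the Kcn values was not tested.

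The stretch-sensitive channels were singled out for their known role, with their values already seen. Kcnk10 had 26.5, 28.9, 34.3 and 33.0 CPM with actuation and 30.6, 30.2 and 28.7 CPM without, a log2 fold change of 0.04 with an interval from -0.54 to 0.62. Kcnk2 had 6.79 to 16.3 CPM with actuation and 8.82 to 14.1 CPM without, with an interval from -0.83 to 0.85. The groups overlapped for both. At 1.34 to 4.31 CPM, Kcnk4 was too low for its interval (-2.26 to 1.48) to exclude changes of more than 2-fold.

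The smallest p-values of this comparison belonged to Kcnq3, Kcng1 and Kcnip2, all with an edgeR adjusted p of 1. Kcnq3, the M-current subunit, had 86.4, 67.8, 81.7 and 76.6 CPM with actuation against 72.7, 61.5 and 55.6 CPM, a log2 fold change of 0.30 (SE 0.21). Kcng1 differed by 0.40 (SE 0.32), which became 0.75 without static-array replicate 1 and 0.21 without replicate 2, and Kcnip2 by -0.95 (SE 0.82). Groups did not overlap for 2 of the 60 genes (Kcnip2 lower and Kcnip4, another Kcnd partner, higher), or 3.33%, against 4.33% of all genes (2.23% lower). Kcnip4, named here after its values were seen, had 4.18, 6.20, 6.51 and 4.15 CPM with actuation and 3.96, 2.83 and 2.96 CPM without (log2 fold change 0.69, SE 0.70). With the shallow static-array replicate 3 included, the Kcn median was -0.16, beside -0.02 for all genes.

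High intensity was compared with the biochemical controls to ask what the medium does. No Kcn gene passed the edgeR test (0 of 60), where 0.462% of all genes did. That share is 68 genes, and it rests on single libraries: it was 0 without high-intensity replicate 1 or 3, actuated-array replicate 1 or static-array replicate 1, and 397 without high-intensity replicate 6. At an unadjusted p under 0.05 there were 2 of 60 (3.33%), both lower, against 15.9% of all genes (7.28% lower). Groups did not overlap for 0 of 60, against 3.56% of all genes (1.49% lower). Of the 60 genes 39 were lower (65%), beside 49.7% of all genes, and the Kcn median was -0.17, beside 0.00 for all genes. It was -0.29 without high-intensity replicate 6 and -0.09 without replicate 3. On log2(TPM + 1) it was 0.38, where the median of all genes was 0.53. Summed neuronal markers were at 5085 to 7371 CPM at high intensity and 7319 to 8185 CPM in the controls, with 8 of 8 lower and a median of -0.28, while 6 of 6 fibroblast markers were higher (772 to 2319 against 306 to 856 CPM, median 1.38), as were all 4 fitted of 8 muscle markers (22.6 to 184 against 8.46 to 101 CPM, median 1.48). All 6 fitted motor neuron markers were lower (75.2 to 128 against 105 to 162 CPM, median -0.27). None of these markers passed the edgeR test, and their part in the Kcn values was not tested.

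Kcnip1 had the smallest p of this comparison. It stood at 33.0, 21.5, 20.4 and 39.9 CPM at high intensity and at 29.9, 51.9, 46.9, 50.1 and 60.3 CPM in the controls. Only the lowest control overlapped the high-intensity range. The log2 fold change was -0.72 (SE 0.20, 95% interval -1.13 to -0.30, edgeR adjusted p = 0.0874). Kcnip1 passed the threshold under DESeq2 (adjusted p = 0.0318) and with no filter on low counts (edgeR adjusted p = 0.0354). It also passed without control replicate 1 (edgeR adjusted p = 0.0460) or high-intensity replicate 6 (0.0267), but not with all 26 libraries (0.362). The adjusted p ranged from 0.0267 to 0.822 over all alternatives. In TPM, Kcnip1 averaged 20.8 ± 11.1 at high intensity and 21.7 ± 8.04 in the controls (SD). The all-gene median on log2(TPM + 1) was 0.53 above the controls.

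Kcnab2 had 20.4, 15.4, 26.2 and 27.0 CPM at high intensity and 25.0, 26.6, 37.3, 30.9 and 38.0 CPM in the controls. The difference was -0.50 (SE 0.18, edgeR adjusted p = 0.165), and the groups overlapped. Kcnk1 differed by -0.46 (SE 0.23, edgeR adjusted p = 0.343). On the TPM scales both of these differences had the opposite sign. Among subfamilies, all 5 Kcna genes tested were lower (median -0.51, none called) on the count scale, whereas the 9 Kcnj genes split into 5 lower and 4 higher. Kcnma1 had 172, 148, 83.0 and 207 CPM at high intensity, where replicate 3 was also lowest for the whole family, with 1362 Kcn counts per 1000000 protein-coding counts. The interval of the fold change lay within 2-fold for 26 of the 29 genes of at least 10 CPM.

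Low intensity gave a like picture against the same controls, so the 2 comparisons are not independent. No Kcn gene passed (0 of 60), with 0.597% of all genes called. That share is 88 genes, which ranged from 2 without low-intensity replicate 1 to 264 without low-intensity replicate 3. At an unadjusted p under 0.05 there were 6 of 60 (10%), all lower, against 15.2% of all genes (6.61% lower), and groups did not overlap for 0 of 60, against 2.25% (0.971% lower). Of the 60 genes 42 were lower (70%), beside 50.9% of all genes, with a Kcn median of -0.18 and an all-gene median of -0.01. On log2(TPM + 1) these were 0.40 and 0.64. Of the neuronal markers 7 of 8 were lower (median -0.21), and the RNA-binding protein gene Elavl4 fell (log2 fold change -0.59, SE 0.13, edgeR adjusted p = 0.0370). Of the fitted motor neuron markers 5 of 6 were lower (70.5 to 118 against 105 to 162 CPM, median -0.55), while 6 of 6 fibroblast markers (214 to 2475 against 306 to 856 CPM, median 0.78) and 5 of 6 oligodendrocyte-lineage markers (98.6 to 379 against 91.7 to 193 CPM, median 0.47) were higher, none of them past the edgeR threshold. The part of these markers in the Kcn values was not tested.

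The inward rectifier Kcnj2 had 4.98, 7.12, 9.54, 8.85 and 10.5 CPM at low intensity and 12.4, 16.5, 8.08, 23.9 and 11 CPM in the controls, where only replicate 3 overlapped the low-intensity range. The difference was -0.80 (SE 0.32, edgeR adjusted p = 0.220). Among the genes with an unadjusted p under 0.05 were also Kcna2 (-0.34, SE 0.14), Kcna1 (-0.76, SE 0.34) and Kcnh8 (-1.06, SE 0.45), an ELK channel related to the ERG channel. On the count scale all 5 Kcna genes tested were lower, while both Kcnmb genes and 3 of 4 Kcnn genes were higher. The summed Kcna TPM was instead higher, with 27.7 ± 6.05 at low intensity and 22.0 ± 6.78 in the controls (SD). The all-gene median on log2(TPM + 1) was also 0.64 above the controls. Intervals lay within 2-fold for 24 of the 29 genes of at least 10 CPM.

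The high- and low-intensity groups were also compared with each other. No Kcn gene passed (0 of 60), and 0% of all genes did. At an unadjusted p under 0.05 there were 3 of 60 (5%), against 7.68% of all genes, and 1 of them was lower, against 4.06%. Groups did not overlap for 0 of 60, against 2.63% (1.35% lower). The Kcn median was -0.03, with 31 lower (51.7%, beside 48.5% of all genes) and 29 higher. It was 0.11 without high-intensity replicate 3 and -0.21 without replicate 6. Kcnj2 was higher at high intensity, with 9.84, 17.8, 24.1 and 12.7 CPM against 4.98, 7.12, 9.54, 8.85 and 10.5 CPM. Only the lowest high-intensity library overlapped, and the difference was 0.97 on the log2 scale (SE 0.33, edgeR adjusted p = 0.505). Kcnip1 differed by -0.55 (SE 0.20, edgeR adjusted p = 0.541) and Kcnk3, an acid-sensitive leak channel, by 0.64 (SE 0.29, edgeR adjusted p = 0.617). High-intensity Kcnk3 split into 10.6 and 9.40 CPM in replicates 1 and 3 and 26.3 and 21.5 CPM in replicates 2 and 6. The interval lay within 2-fold for 24 of 29 genes. All 6 fibroblast markers (median 0.70) and all 4 fitted muscle markers (median 0.89) were higher at high intensity and 7 of 8 neuronal markers were lower (median -0.07), none past the edgeR threshold, and their part in the Kcn values was not tested.

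The static array was compared with the biochemical controls to ask what the array itself does. The 2 arms also differed in depth, so array and depth cannot be told apart. No Kcn gene passed (0 of 60), with 0.713% of all genes called. That share is 105 genes, which ranged from 18 without static-array replicate 4 to 141 without control replicate 6. At an unadjusted p under 0.05 there were 6 of 60 (10%), 3 in each direction, against 12.6% of all genes (6.46% lower). The Kcn median was -0.11, with 37 lower (61.7%, beside 50.3% of all genes) and 23 higher. It was -0.02 without control replicate 6, and 0.10 with all 26 libraries, where the median of all genes was 0.09. On log2(TPM + 1) it was 0.37, where that of all genes was 0.50.

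Kcnmb4 showed the smallest p of all 5 comparisons. It stood at 34.7, 34.3 and 34.1 CPM on the static array and at 9.49, 4.91, 8.84, 23.9 and 24.9 CPM in the controls. The static libraries were nearly equal and above every control, and the controls themselves split into replicates 1 to 3 below 10 CPM and replicates 5 and 6 above 20 CPM. The log2 fold change was 1.26 (SE 0.33, 95% interval 0.58 to 1.94, edgeR adjusted p = 0.0701). Kcnmb4 passed under DESeq2 (adjusted p = 0.0200) and with no filter on low counts (edgeR adjusted p = 0.000368). It also passed without control replicate 5 (edgeR adjusted p = 0.0416) or 6 (0.0232), but not with all 26 libraries (0.535). On log2(TPM + 1) it passed with a difference of 2.55 (limma adjusted p = 0.0159), where the all-gene median was 0.50. That difference exceeds the 1.26 on counts, and the cause was not tested. The adjusted p ranged from 0.000368 to 0.535 over all alternatives. The actuated array, not part of this comparison, had 35.2, 25.1, 34.5 and 36.9 CPM, also above every control. Kcnma1, the pore that Kcnmb4 modifies, differed by -0.03 (SE 0.19).

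Kcnmb4 overlaps the antisense gene Kcnmb4os2, and the strand use of the counting is not given in the sources used here. Kcnmb4os2 averaged 0.882 ± 0.204 CPM on the static array and 3.51 ± 6.86 CPM in the controls. Markers of other cells also moved in this comparison: 6 of 6 markers of the oligodendrocyte lineage were higher on the static array (246 to 540 against 91.7 to 193 CPM, median 1.48), as were 6 of 6 markers of astrocytes and radial glia (median 0.45), none of them past the edgeR threshold. Lower on the static array were 5 of 6 fibroblast markers (144 to 740.1 against 306 to 856 CPM, median -0.49) and 5 of 6 fitted motor neuron markers (73.7 to 89.1 against 105 to 162 CPM, median -0.59). Among the latter the choline transporter gene Slc5a7 fell (log2 fold change -1.88, SE 0.31, edgeR adjusted p = 0.00392). The part of these markers in the Kcn values was not tested.

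**Figure D4:**
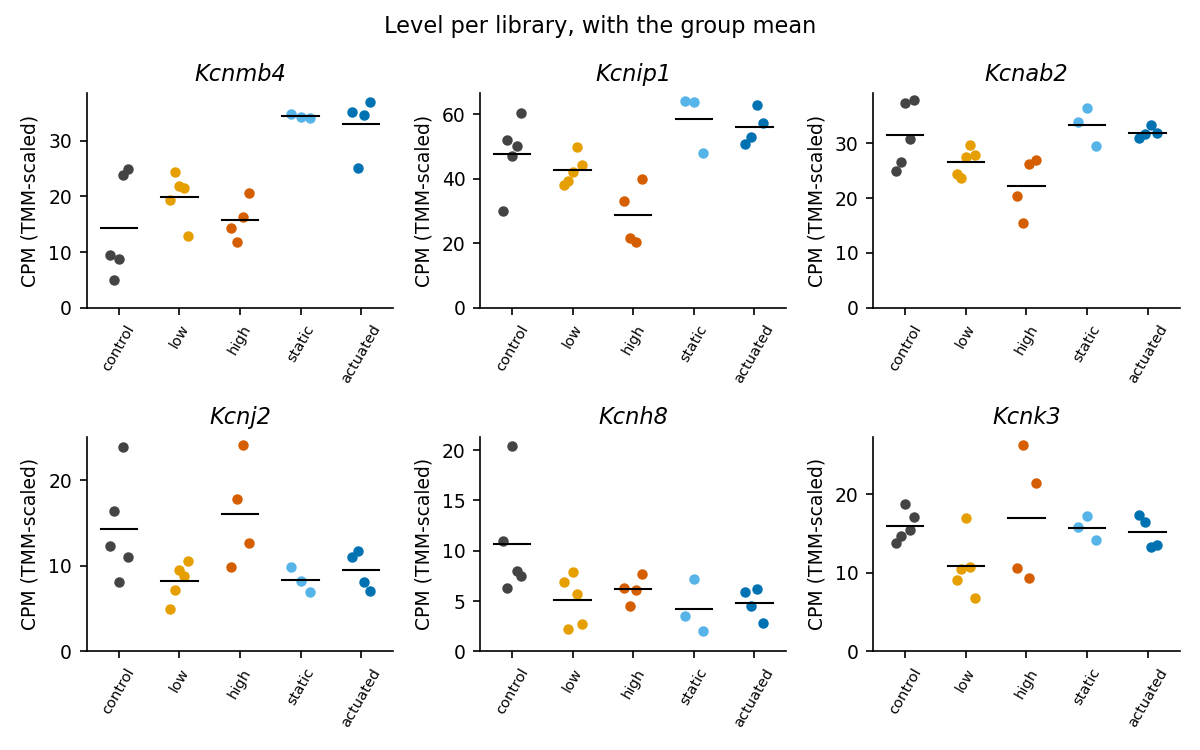
TMM-scaled CPM of 6 Kcn genes among those with the smallest p-values, for each of the 21 deeper libraries, with the group mean as a bar. Kcnmb4 lies between 25.1 and 36.9 CPM in all array libraries and between 4.91 and 24.9 CPM in the controls.

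Groups also did not overlap for Kcnd3 and Kcnj10, both higher on the static array, so 3 of 60 genes (5%) were apart, against 8.14% of all genes (3.62% lower). Kcnd3 had 60.4, 46.6 and 56.3 CPM on the static array and 38.4 to 45.9 CPM in the controls (log2 fold change 0.37, SE 0.18, edgeR adjusted p = 0.393). The glial Kcnj10 had 83.3, 88.6 and 90.8 CPM against 80.8, 29.1, 56.1, 78.1 and 81.1 CPM (0.43, SE 0.26, edgeR adjusted p = 0.523). Lower on the static array were Kcnh8, at 3.51, 7.14 and 1.97 CPM against 10.9, 6.31, 20.4, 7.95 and 7.54 CPM (-1.32, SE 0.51, edgeR adjusted p = 0.252), and Kcnj2, at 9.84, 8.18 and 6.90 CPM (-0.78, SE 0.36, edgeR adjusted p = 0.361). Of the 5 Kcna genes tested, 4 were lower on the count scale (median -0.50, none called). At high and low intensity all 5 were lower against the same controls. The interval lay within 2-fold for 23 of 29 genes.

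**Figure D5:**
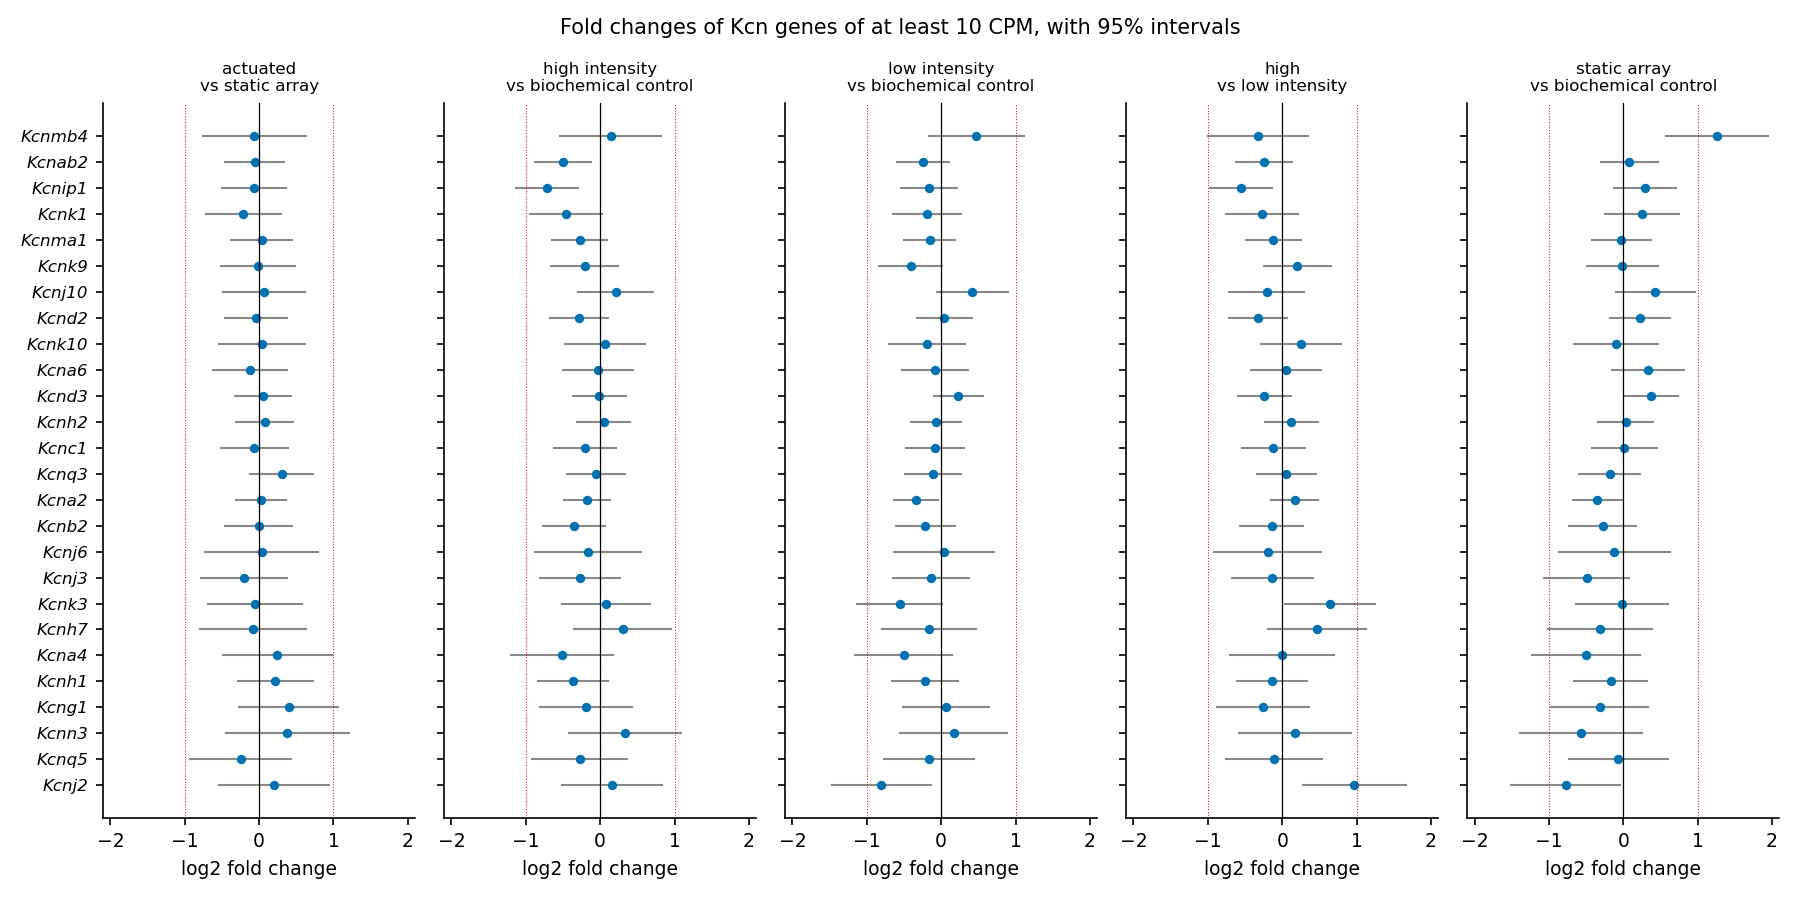
Log2 fold changes with 95% intervals for 26 of the 29 Kcn genes of at least 10 CPM in the 5 comparisons, with dotted lines at a 2-fold change. Most intervals cross 0 and stay within the dotted lines, and Kcnmb4 on the static array (1.26) lies furthest from 0.

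With the 5 shallow libraries included, 64 Kcn genes were fitted and the edgeR test called 0 of 64 in each comparison. The share of all genes called was 0% for actuation, 0.0402% for high intensity, 0.0268% for low intensity, 0% for high against low intensity and 0.0134% for the static array. At an unadjusted p under 0.05 the Kcn counts were 3, 3, 1, 0 and 5 in that order, against 3.86, 7.04, 5.23, 2.91 and 5.27% of all genes.

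Genes that work with potassium channels were described in the same fit. Of 17 partner proteins such as Dpp6 and Ank3, 14 were fitted, and only Ank3, the ankyrin that anchors Kcnq channels at the axon initial segment, passed the test, in 1 comparison. It stood at 817, 798 and 651 CPM on the static array against 1016 to 1224 CPM in the controls and fell by 0.58 on the log2 scale (SE 0.14, edgeR adjusted p = 0.0447). None of the 10 genes of the potassium gradient (sodium pumps and cation-chloride cotransporters), 4 HCN channels, 10 fitted voltage-gated sodium channel genes and 15 fitted calcium channel genes passed in any of the 5 comparisons. Against the controls their medians at high and low intensity were -0.39 and -0.41 for sodium channels, -0.18 and -0.29 for calcium channels, -0.40 and -0.21 for HCN channels, and -0.09 and 0.00 for the potassium gradient, beside Kcn medians of -0.17 and -0.18. With actuation the medians of these lists and of the partner proteins lay between -0.04 and 0.09.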

How the data were processed

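RNA of 26 libraries was sequenced as 50-base pairs from 4 ng input (full volume for the 8 samples of lowest concentration), without molecular identifiers in the labels. Gene values came in a pair of tables: unscaled expected counts, held as integers in the file that the authors deposited, and TPM, also deposited by the authors. The submitters' processing notes name STAR, Salmon, BWA 0.7.12-r1039 and bedtools 2.25.0, and the builds mm10, GRCm39 and hg19, without roles, and strand use is not given in the sources used here. Biotypes came from the count table, because those of the TPM table agreed in only 25.3% of rows.

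The 94 members, the gene lists and the tests were chosen with earlier results of these data known. Libraries with over 1000000 protein-coding counts (21) entered 1 fit with a coefficient per group: edgeR 4.0.16 (R 4.3.3), filterByExpr (14730 genes), TMM, quasi-likelihood F-test, Benjamini-Hochberg adjustment over all genes, threshold 0.05. A standard error is the absolute log2 fold change divided by the root of F. The scripts were tested on simulated data. Genes were named if called in either fit (21 or 26 libraries), if among the 3 smallest p-values of a comparison, if highest in TPM of their subfamily, if among the 15 highest in TPM, or if textbook motor neuron channels. Some members that the rule selects are not reported here by name, although every count and median includes them. Members outside that rule were named for their levels after these were seen. The alternatives included DESeq2 1.42.0, limma 3.58.1 (voom with quality weights, and log2 TPM) and other filters. They also included fits of only the groups compared, all 26 libraries and leaving out each library. Library pairs of a group differed by more than sampling noise (chi-square per degree of freedom 4.74 to 41.7 over 35 pairs). Figures were drawn with matplotlib 3.10.9. Annotation overlaps used GENCODE M21: 22 members, among them 7 of 31 named genes (Kcna6, Kcnd3, Kcnk1, Kcnma1, Kcnmb4, Kcnn1 and Kcnn2), overlap an exon of a gene on the opposite strand, so their counts are uncertain.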

Additional observations from a re-analysis of the deposited data

Results flagged for a closer look

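In 124 groups of 4 or 5 libraries over the 31 named genes, Dixon's rule set a library apart 10 times, and chance alone sets about 1 in 20 apart. Above the rest of their group stood Kcna6 in actuated-array replicate 3 (67.4 CPM, next 56.5), Kcng1 in low-intensity replicate 1 (15.5 CPM, next 10.2) and Kcnj10 in low-intensity replicate 1 (130.0 CPM, next 84.8). Below the rest stood Kcnk10 (12.2 CPM, next 28.8) in low-intensity replicate 5, and Kcnma1 in control replicate 2 (135 CPM, next 193). Near the limit of counting, Kcnrg stood apart in low-intensity replicate 2 (1.5 CPM), control replicate 6 (0.869 CPM) and high-intensity replicate 6 (1.38 CPM), and Kcnu1 in low-intensity replicate 1 (2.21 CPM) and control replicate 1 (1.44 CPM).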

How the results depend on the processing

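The Kcn count of 0 held under every alternative for actuation and for high against low intensity. It was 1 with no low-count filter and under DESeq2 for high intensity (Kcnip1), low intensity and the static array (Kcnmb4) against the controls, and 1 at an adjusted p under 0.1 for high intensity and the static array. On log2(TPM + 1) and log2(TPM + 0.1) with limma it was 2 and 2 (Kcnh2 and Kcnip2) at high intensity, 5 and 5 at low intensity, and 1 and 2 on the static array. Leaving out each library gave 0 to 1 in these 3 comparisons. The share of all genes called under DESeq2, with no filter and on the TPM scales is not given here. These Kcn counts are therefore not set against a background. Kcn medians on the 2 TPM scales were 0.087 and 0.088 (actuation), 0.38 and 0.49 (high intensity), 0.40 and 0.58 (low intensity) and 0.37 and 0.56 (static array), where all-gene medians were 0.11 and 0.12, 0.53 and 0.64, 0.64 and 0.75, and 0.50 and 0.62. The turned signs were 0.53 and 0.56 for Kcnab2 and 0.11 and 0.11 for Kcnk1 at high intensity. The cause was not tested. With all 26 libraries the medians were -0.16 (actuation) and 0.10 (static array). The high-intensity median ranged from -0.29 without its replicate 6 to -0.09 without its replicate 3, and that of high against low from -0.21 to 0.11 without the same libraries. Genes of at least 5 CPM numbered 42, against 67 of at least 1 CPM. The replicate block changed no call, with 0 Kcn genes and Kcn medians from -0.21 (high intensity) to -0.02 (actuation). Deviations of same-numbered libraries correlated at -0.28 to 0.33 over the 5 comparisons. The highest value was among the 3 actuated and static pairs (-0.16 to 0.33), and in 2 of them a library correlated best with its own number. Whether same-numbered array libraries shared their handling was not tested. For genes under 10 CPM most intervals exceed 2-fold, and the part of depth in this was not tested. The next tally leaves aside the fits without 1 library. Of 130 recomputed values for 13 gene results among those with the smallest p, 120 kept direction and side of the threshold, 6 passed it and 4 turned. Of the 21 fits without 1 library, Kcnip1 (high intensity against controls) passed in 2 and Kcnmb4 (static array against controls) in 2.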

Other observations

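The Kcn prefix also covers 5 rows that do not code for protein, which the 94 genes leave out. The antisense genes Kcnmb4os1 and Kcnab3os had 0 and 3 counts over the 21 deeper libraries. Kcnq1ot1 is a long non-coding RNA that silences imprinted genes around Kcnq1 in cis. It had far more counts than its host Kcnq1, which had 8 in all, but counts do not account for length. These genes overlap on opposite strands and strand use is not given, so their counts are uncertain. Kcnq1ot1 averaged 69.9 ± 30.6 CPM on the actuated array (SD, n = 4) and 59.0 ± 10.5 on the static array (n = 3). It averaged 131 ± 34.6 CPM at low intensity (n = 5), 197 ± 35.8 in the controls (n = 5) and 299.9 ± 96.1 at high intensity (n = 4). It was lower on the static array than in the controls (log2 fold change -1.74, SE 0.27, edgeR adjusted p = 0.00276), and the actuated array did not differ from the static one past the threshold (0.25, SE 0.27, edgeR adjusted p = 1). High against low intensity gave 1.20 (SE 0.23, edgeR adjusted p = 0.0939).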
